A study of Mus musculus with 4 samples.

Results

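Adult mouse thymus was compared with a reference RNA made from 11 mouse cell lines, both hybridised to the same microarray, and this was done on 2 arrays. The members are the 2 arrays of the series that carry thymus RNA, of 4 in all, chosen by their labels. The thymus samples came from adult mice of the inbred strain C57BL/6J, and the labels call them biological replicates 1 and 2 without saying which or how many animals gave the RNA. On array 1 the thymus RNA carried the dye Cy3 and the reference Cy5, and on array 2 the dyes were swapped. Dye and replicate number cannot be told apart, and p-values measure the spread between these arrays. The other 2 arrays hold brain of adult C57BL/6J mice against the same reference, and they are used here for the spread and to show where thymus differs from another tissue. The readme gives the reference as a universal mouse reference RNA. It names no treatment, genotype or allele beyond the strain, and it does not list the lines.

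The thymus is the organ in which T cells mature. Most of its cells are thymocytes, many of them dividing, held in a network of epithelial cells with macrophages, dendritic cells, B cells and fibroblasts. Thymocytes rearrange their receptor genes and are then selected by the epithelium. Cell lines, in contrast, are adapted to growth in culture. A ratio to a pool of lines therefore sets a whole organ, with its mixture of cells, against a mixture of cultured cells. In whole tissue, fewer cells of a type and less RNA per cell cannot be told apart.

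The array carries 41821 probes, and 13 of them could be paired with a gene symbol through a RefSeq table. The remaining 41808 bear project or clone identifiers or sequence accessions that no table used here pairs with a gene. None of the 16 T lineage markers and none of the 7 thymic epithelium markers looked for has a probe with a name. The same holds for the lists of B cells, macrophages and dendritic cells, red cells, fibroblasts and liver. The label thymus could thus not be checked against its defining markers, and the results below describe probes in bulk and the 13 genes.

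Both channels gave signal at most probes, more on array 2 than on array 1. The scanner software called 60.3% of spots well above background for thymus on array 1 and 97.3% on array 2. For the reference the shares were 57.2% and 86.1%. Among 314 negative-control spots per array, 1.27% and 1.59% were called well above background for thymus and 0.955% on each array for the reference. Median signals were 360.4 and 546 intensity units for thymus and 364 and 545 for the reference. The lowest signal well above background was 209 and 17.7 for thymus, and 250.2 and 78.9 for the reference. On array 1, 19% of spots lay at the floor of both channels, where the software sets the ratio to 0, and on array 2 this held for 1.69%. Array 1 thus had the higher floor of the pair.

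By the software's own calls on both arrays together, few probes were detected in thymus alone or in the reference alone. Array 2, with its low floor, called most spots in both channels, so such counts are small by this rule. Thymus was well above background on both arrays at 25171 probes (60.2%) and the reference at 23897 (57.1%), and 22950 (54.9%) had both. At 112 probes thymus was detected on both arrays and the reference on neither, and at 6 probes the reverse held. These counts depended on the arrays: they were 4736 and 64 on array 2 alone and 2200 and 948 on array 1 alone. With a common floor for all channels they were 692 and 795.

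Thymus and reference were compared as the log2 of the thymus signal minus the log2 of the reference signal of the same spot. A positive difference means more signal in thymus. A probe was tested when thymus or reference was well above background on both arrays, which left 26118 probes. Of these, 22950 passed through both channels, 2221 through thymus and 947 through the reference.

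The 2 arrays gave similar ratios with the dyes swapped. Over the tested probes the difference between the arrays had an SD of 0.38 log2 units, and 97.5% of probes lay within 2-fold. The ratios themselves had an SD of 0.94 on array 1 and 0.88 on array 2. Pearson's r between the arrays was 0.917 and Spearman's rho 0.843, across probes, which are not independent replicates. The sign was the same on both arrays for 20680 probes (79.2%). The median of the mean difference was 0.02, so the ratios were centred near 0. The 5th and 95th percentiles of the mean difference were -1.43 and 1.32. A pair of probes spotted many times on each array gave a measure of the error within an array. For the first, the ratio had SDs of 0.15 over 98 spots on array 1 and 0.12 over 90 spots on array 2. For the second, over 89 spots on each array, the SDs were 0.38 on array 1, where neither channel was well above background at any spot, and 0.24 on array 2.

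**Figure D1:**
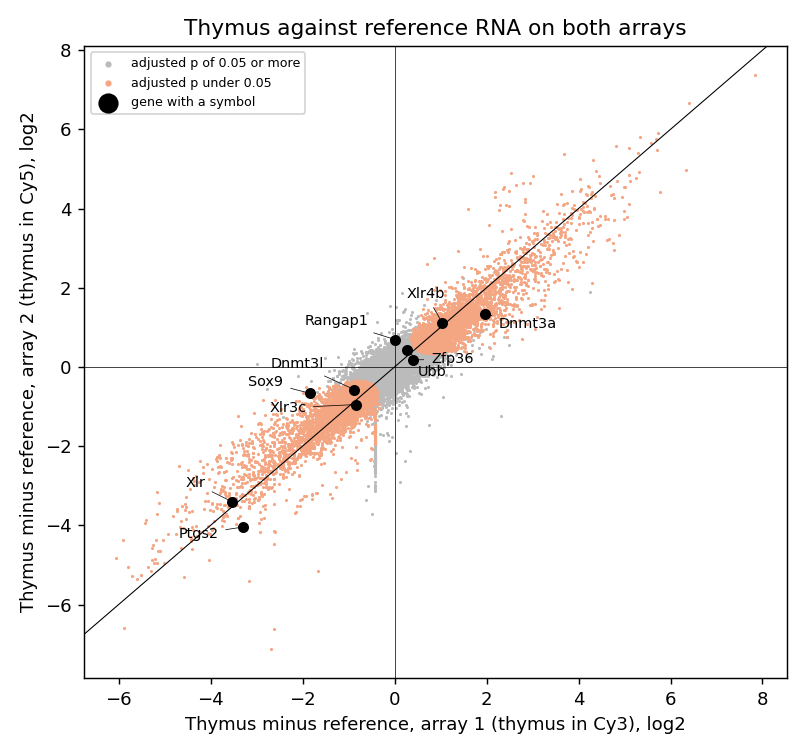
Each point is a tested probe, with the log2 thymus minus reference difference on array 1 (thymus in Cy3) on the horizontal axis and on array 2 (thymus in Cy5) on the vertical axis. Orange points had a limma adjusted p under 0.05, black points are the 10 tested genes with a symbol, and the diagonal marks equal ratios. Most points follow the diagonal, and the short vertical streak at -0.43 on array 1 holds probes saturated in both channels there.

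About 3 in 10 tested probes differed between thymus and reference, in about equal numbers in both directions. The software normalized the dyes within each array, which tends to centre the ratios near 0. The even split may thus in part reflect that step, which was not tested. In limma fits over all 26118 probes, with an adjusted p under 0.05, 7598 probes differed (29.1%). Of these, 3688 (14.1%) were higher in thymus and 3910 (15%) were lower. The median fold was 2.05 for probes higher in thymus and 2.13 for those lower. At 4-fold or more there were 608 probes higher and 678 lower, at 8-fold or more 223 and 223, and at 32-fold or more 14 and 13. Without adjustment, 5016 probes higher and 5168 lower had a p under 0.05. Among the 22950 probes well above background in both channels on both arrays, 2880 were higher and 3178 lower, with median folds of 1.91 and 1.99.

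The counts depended on having both arrays. On array 2 alone (without thymus 1), no probe passed in limma, with 40743 probes tested and 4658 at an unadjusted p under 0.05. With the tested probes held fixed, 3111 passed there. On array 1 alone (without thymus 2), 3651 passed. In these fits the single thymus array is assumed to vary like the brain arrays.

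The size of many of the larger folds is uncertain because the lower side was dim. Among probes called higher in thymus, the reference was well above background on only 1 array at 727 and on neither at 81. Among those called lower, thymus was well above background on only 1 array at 728, in every case array 2, and on neither at 4. Where a side was dim on both arrays, the fold is a lower bound. It was computed against each array's lowest signal well above background, or the probe's own signal where that was higher. The median bound was at least 2.59-fold for the 81 and at least 6.2-fold for the 4.

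Agreement was best at middling brightness and poorer at both ends. In 5 classes of equal size by mean signal, the SD between arrays was 0.51, 0.32, 0.28, 0.26 and 0.44 from dimmest to brightest. The share called was 28.2%, 23.3%, 26.9%, 30.8% and 36.3% in the same order. From dimmest to brightest, 725, 546, 672, 801 and 944 probes were called higher and 748, 671, 732, 809 and 950 lower. The split was about even in the dimmest and the brightest class, while the class next to the dimmest leaned lower. The dye normalization within each array may bear on this split too, which was not tested. The brightest class runs from a signal of 3846 upwards and holds all 522 probes that were saturated in some channel of a thymus array. Without these its SD was 0.27.

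**Figure D2:**
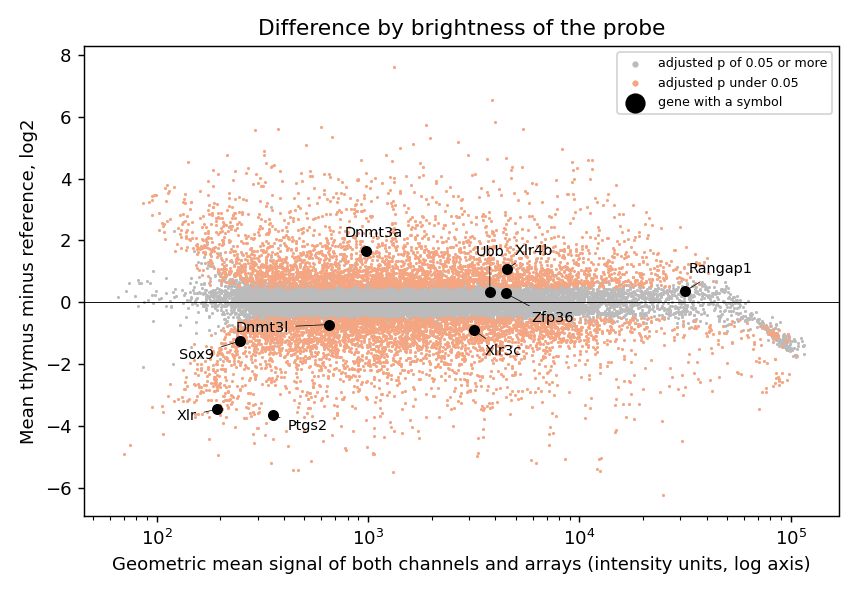
The mean log2 thymus minus reference difference (vertical axis) is plotted against the geometric mean signal of both channels and arrays in intensity units (horizontal log axis) for each tested probe. Orange points had a limma adjusted p under 0.05 and black points are genes with a symbol; the tail that bends below 0 at the bright end holds saturated probes.

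Saturation fixed the ratio of the brightest probes. At 238 probes both channels were saturated on array 1, and all 238 were also saturated for thymus on array 2. Their difference on array 1 ran only from -0.43 to -0.42. On array 2, where the reference was saturated at 12 spots in all, it ran from -3.14 to -0.71 with a median of -1.93. Of the 238, 33 were called lower in thymus and 0 higher. A saturated signal is only a lower bound, so the direction of these 33 is not settled. Over all 522 saturated probes, 51 were called higher and 86 lower. Without them 7669 probes were called, 3748 higher and 3921 lower.

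A symbol was known for 13 genes. Signal sufficed for a test in 10, and 7 of these passed, 2 higher in thymus and 5 lower. Of the 5, Sox9, Xlr and Ptgs2 were tested only because the reference was well above background on both arrays, while thymus was so on array 2 only. The median difference of the 10 tested genes was -0.22, against 0.02 over all tested probes, of which 29.1% were called. It rests in part on those 3 genes. The genes were put on the array by name and are no sample of the transcriptome.

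**Figure D3:**
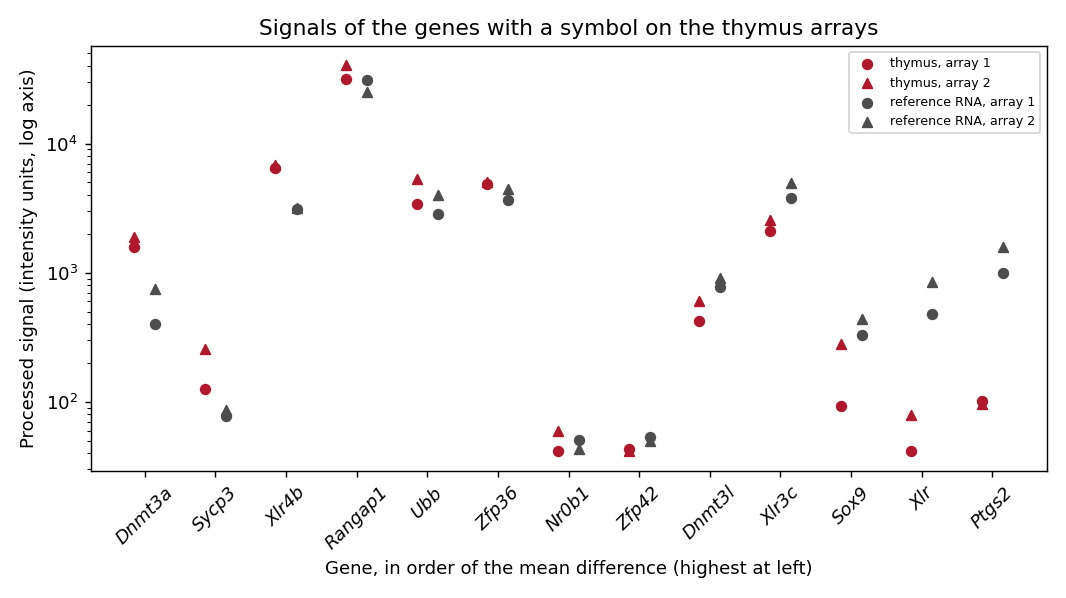
Processed signal in intensity units (log axis) of the 13 genes with a symbol, with thymus (red) left of the reference RNA (grey) for each gene, and circles for array 1 and triangles for array 2. Thymus lies above the reference on both arrays for Dnmt3a, Sycp3, Xlr4b, Rangap1, Ubb and Zfp36, and below it on both for Zfp42, Dnmt3l, Xlr3c, Sox9, Xlr and Ptgs2.

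Of the X-linked lymphocyte-regulated family, 3 of the 10 genes looked for had a named probe, and these split in direction. The family is a cluster of related mouse genes on the X chromosome named for their expression in lymphoid cells. Its members encode nuclear proteins of the same family as the synaptonemal complex protein Sycp3. Xlr4b had signals of 6426 and 6795 in thymus on arrays 1 and 2, against 3121 and 3154 in the reference. Thymus was higher on both arrays and the channels did not overlap. The difference was 1.07 ± 0.05 (SD, n = 2), with SE 0.13, or 2.11-fold, and passed the threshold (limma adjusted p 0.00259). It was higher than the difference of 93.2% of tested probes.

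Xlr3c had signals of 2096 and 2564 in thymus, against 3758 and 4950.3 in the reference. Thymus was lower on both arrays, by a mean difference of -0.90 ± 0.08 (SD, n = 2; SE 0.14; limma adjusted p 0.00579). Xlr itself was far lower in thymus, with signals of 41.7 and 79.7, against 483 and 843 in the reference. Its difference was -3.47 ± 0.09 (SD, n = 2; SE 0.31; limma adjusted p 0.000936), or 11.1-fold in size. Thymus was well above background for Xlr only on array 2, so the size of the fold is uncertain, and with normexp and loess the difference was -2.34. Xlr3c and Xlr4b have near-identical relatives that may share their signal, and the assignment to these genes is uncertain. Without thymus 2 the differences were 1.04 for Xlr4b (limma adjusted p 0.053) and -0.84 for Xlr3c (0.107), and neither passed. Without thymus 1, with the tested probes held fixed, Xlr3c was at -0.95 (0.0827) and did not pass.

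The genes of de novo DNA methylation also moved apart. Dnmt3a encodes a methyltransferase that sets new methyl marks on DNA. It had signals of 1572 and 1901 in thymus, against 404 and 750.3 in the reference. All 4 signals were well above background, and thymus lay above the reference without overlap. The difference was 1.65 ± 0.44 (SD, n = 2), with SE 0.19, or 3.14-fold (limma adjusted p 0.00194). It was the highest of the 10 tested genes, and 96.6% of tested probes had a lower difference. It was 1.96 on array 1 and 1.34 on array 2. Against a log2 difference of 1 the limma adjusted p was 0.0989. With normexp and loess the difference was 1.27.

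Dnmt3l encodes a cofactor of these enzymes that has no catalytic activity and is best known from germ cells and embryonic stem cells. It had signals of 426 and 609.6 in thymus, against 783 and 904 in the reference. Thymus was lower on both arrays, with a difference of -0.72 ± 0.22 (SD, n = 2; SE 0.18; limma adjusted p 0.0304), or 1.65-fold in size. The signal in thymus was well above background on both arrays. This call did not hold without thymus 1, with the tested probes fixed (-0.57, limma adjusted p 0.362), without thymus 2 (-0.88, 0.126), or with no filter on dim probes (0.138). Of the 8 DNA methylation genes looked for, these 2 had a named probe.

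Sox9, a transcription factor of cartilage, neural progenitors and astrocytes, was lower in thymus than in the reference. Its signals were 92.3 and 279 in thymus, against 331 and 442 in the reference. The arrays differed in size, at -1.84 and -0.66. The mean difference was -1.25 ± 0.83 (SD, n = 2; SE 0.34; limma adjusted p 0.0411). Thymus was well above background on array 2 only. The call was lost without thymus 1 with the tested probes fixed (-0.66, limma adjusted p 0.401) and with no filter on dim probes (0.176), while without thymus 2 the difference was -1.84 and passed.

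Ptgs2, the inducible cyclooxygenase of inflammation, was also far lower in thymus. Its signals were 102 and 96.9 in thymus, against 997 and 1595 in the reference. The groups lay far apart on both arrays. The difference was -3.66 ± 0.53 (SD, n = 2; SE 0.26; limma adjusted p 0.00043), or 12.7-fold in size, and only 0.322% of tested probes lay lower. Thymus was well above background on array 2 only, so this size too is uncertain, and with normexp and loess the difference was -2.50. Zfp36 encodes an RNA-binding protein that hastens the decay of mRNAs, among them those of inflammatory genes. It had signals of 4840.5 and 5065 in thymus, against 3672 and 4470 in the reference. Its difference was 0.29 ± 0.15 (SD, n = 2; SE 0.14; limma adjusted p 0.208; 95% interval -0.07 to 0.65), which did not pass. With normexp and loess it was 0.28 and passed (limma adjusted p 0.0444).

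The remaining tested genes serve all cells. Rangap1, the GTPase-activating protein of the transport factor Ran, had signals of 31363 and 40411 in thymus, against 31155 and 25008 in the reference. Its difference was 0.35 ± 0.48 (SD, n = 2; SE 0.24; limma adjusted p 0.358), with a 95% interval from -0.24 to 0.94. The arrays differed, at 0.01 and 0.69. Ubb, a polyubiquitin gene, had signals of 3390.3 and 5317 in thymus, against 2828 and 3967 in the reference. Its difference was 0.34 ± 0.11 (SD, n = 2; SE 0.14; limma adjusted p 0.126). It did not pass, but did with normexp and loess (0.36, limma adjusted p 0.0188).

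The 3 genes left untested were dim in both RNAs. Of the pluripotent cell markers with a named probe these include Zfp42 and Nr0b1 but not Dnmt3l, described above, which was well above background in both RNAs on both arrays. Sycp3, which helps to pair chromosomes in meiosis, had signals of 125 and 259 in thymus, against 77.3 and 86.8 in the reference. Nr0b1, a nuclear receptor known from the adrenal gland and from pluripotent cells, had 41.5 and 59.6 in thymus, against 50.4 and 43 in the reference. Zfp42, a marker of pluripotent cells, had 43.5 and 42.1 in thymus, against 53.7 and 50.01 in the reference, each a mean over 10 spots of its probe. For these 3 genes thymus was well above background on array 2 only and the reference on neither array. They were not tested, and no fold is given.

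Among the unnamed probes the leading pair in each direction was taken from those called and well above background in both channels on both arrays. TB4757 had signals of 35159 and 39257 in thymus, against 415 and 384 in the reference, a difference of 6.54 ± 0.19 (SD, n = 2; SE 0.22), or 93.1-fold. TF35225 had 25838 and 34510.3 in thymus, against 484 and 579 in the reference, a difference of 5.82 ± 0.11 (SD, n = 2), or 56.4-fold. Both stood far above the reference on each array.

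Towards the reference, TB5335 had signals of 1870.1 and 4416 in thymus, against 110808 and 424259 in the reference, a difference of -6.24 ± 0.49 (SD, n = 2). Its reference signal on array 1 was saturated and is only a lower bound there. The size of its difference is thus a lower bound as well, and no fold is given. Other probes were saturated too, so its place as leader is uncertain. Array 2 alone gave -6.59. The probe 1I002D02 had 1770.5 and 2016 in thymus, against 85168 and 82124 in the reference, a difference of -5.47 ± 0.17 (SD, n = 2), or 44.3-fold in size. In limma the adjusted p of the first 3 was 0.000153, the smallest of the comparison, and that of the last was 0.000179. Each was chosen for its size, and the files do not pair these identifiers with genes.

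The reference channel was not the same on thymus and brain arrays at such probes, although it held the same material. At TB4757 the reference signal of 415 and 384 on the thymus arrays stood against 27.4 and 43.9 on the brain arrays, where brain itself was at 45.8 and 41.4. At TF35225 it was 484 and 579 on the thymus arrays and 52.3 and 76.7 on the brain arrays. The arrays were not scaled to each other by the authors, so for the bulk of probes each channel was set to its own 75th percentile. The reference then followed the tissue. At 254 tested probes where thymus exceeded brain by over 4 log2 units, the median reference signal was 0.22 higher on the thymus arrays, and higher at 79.5% of them. At 247 probes where thymus was under brain by over 4 units, it was -0.43, and higher at 10.1%. At 18680 probes within 1 unit it was 0.01 and 52.6%. The channels of an array share their spots, and what this pattern adds to or takes from the ratios was not tested.

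**Figure D4:**
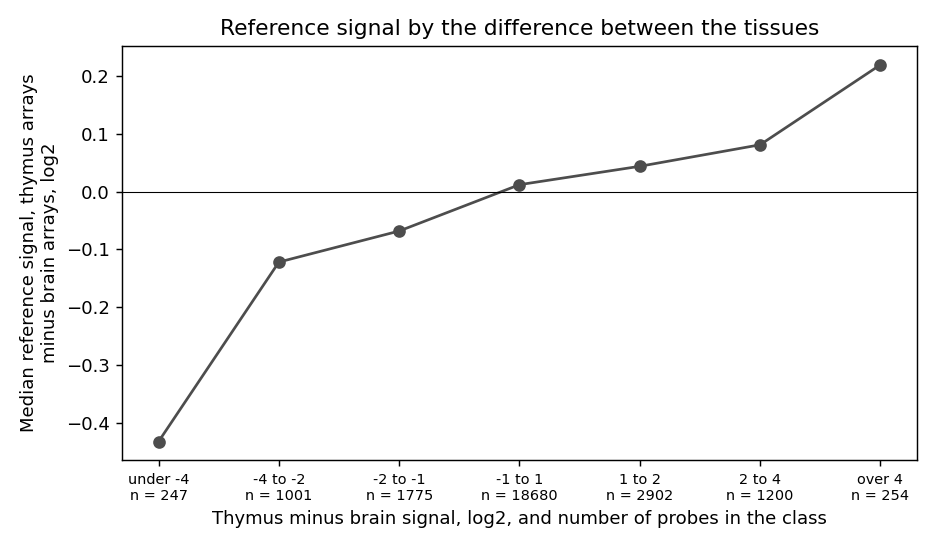
Median difference in reference signal between thymus arrays and brain arrays (vertical axis, log2, each channel set to its own 75th percentile) for tested probes in 7 classes of the thymus minus brain difference in tissue signal (horizontal axis, log2, with the number of probes). The median runs from -0.43 in the class under -4 to 0.22 in the class over 4.

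At 706 tested probes the reference was not well above background on either brain array, and its median signal was 155 on the thymus arrays and 65.5 on the brain arrays. Of these, 26 had a thymus signal over 3000, and their median reference signal was 299 on the thymus arrays and 56.6 on the brain arrays, with 13 of the 26 well above background on both thymus arrays. The medians were 149 and 63.1 at 62 probes with a thymus signal between 1000 and 3000, 128 and 66.1 at 295 probes between 300 and 1000, and 172 and 66.8 at 323 probes below 300. In the same order, 6, 40 and 81 probes were well above background on both thymus arrays. From a thymus signal of 300 upwards, the median reference signal on the thymus arrays rose with the class. Below 300 it was higher than in the classes from 300 to 3000. What sets these medians was not tested. These are unscaled signals. The 706 probes were chosen for a dim reference on the brain arrays and for signal on the thymus arrays. A higher reference signal on the thymus arrays is thus in part built into the choice, and no conclusion is drawn from it.

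Thymus was also set against brain on the same probes. The test of thymus minus brain, both as ratios to the reference, called 8234 of the 26118 probes (31.5%), of which 4787 (18.3%) were higher in thymus and 3447 (13.2%) lower. The median folds were 2.66 and 2.97. The probes were selected for signal on the thymus arrays, so probes seen in brain alone are missing, and the balance of directions depends on that filter. With no filter on dim probes, 2496 were higher and 3058 lower, which turns the balance round. With each array's ratios centred on the median, the counts were 4307 and 3883. Both thymus arrays were scanned on 1 day and the brain arrays on other days, so scan day and tissue cannot be told apart in this test.

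Of the 10 tested genes, 3 differed between thymus and brain, against 31.5% of all tested probes. Xlr4b had signals of 180.4 and 182 in brain, against 2733 and 2667 in the reference there, and its thymus minus brain difference was 4.97 (SE 0.19; limma adjusted p 0.000222). The brain signal was well above background on 1 array, so the size of this fold is uncertain. Dnmt3a differed by 1.81 (SE 0.26; limma adjusted p 0.00436), and its brain signals of 344 and 346 lay close to the reference at 405 and 368. Against a log2 difference of 1 its limma adjusted p was 0.0992. Sox9 differed by -3.43 (SE 0.48; limma adjusted p 0.00393), with brain above the reference by 2.17 and thymus below it. For Sox9 thymus was well above background on 1 array only, so this size is uncertain too. With normexp and loess the difference was -2.11 for Sox9 and 3.81 for Xlr4b, and both passed. The genes farthest below the reference in thymus lay far below it in brain too, with Ptgs2 at -3.59 and Xlr at -4.10. Neither was well above background on a brain array, and each was so on 1 thymus array only, so their fitted differences between the tissues (-0.08 for Ptgs2 and 0.63 for Xlr, neither passing in limma) set signals at or near the floor against each other and compare no levels. Xlr3c differed by 0.08 (95% interval -0.40 to 0.57), Dnmt3l by 0.48 (-0.15 to 1.11), Zfp36 by 0.51 (limma adjusted p 0.12), Ubb by 0.19 and Rangap1 by -0.27, and none of these passed. With normexp and loess Zfp36 passed, at 0.53 (limma adjusted p 0.0163). Without thymus 1, where no probe passed in limma and 6632 had an unadjusted p under 0.05, the 3 calls were lost as well (limma adjusted p 0.12 for Xlr4b, 0.219 for Dnmt3a and 0.168 for Sox9), and with the tested probes fixed all 3 passed (0.00103, 0.0265 and 0.00887). Without brain 1, Xlr passed, at 1.31 (limma adjusted p 0.00821), from signals equally near the floor.

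**Figure D5:**
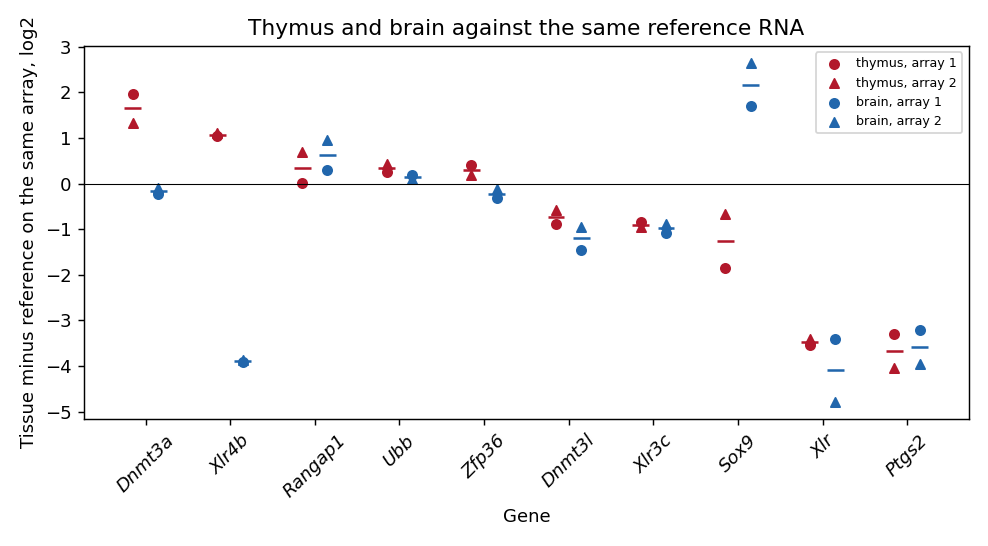
Log2 tissue minus reference difference on each array for the 10 tested genes, with thymus (red) left of brain (blue), circles for array 1, triangles for array 2 and a bar at the mean of the pair. Xlr4b and Dnmt3a lie higher in thymus and Sox9 lower, while Xlr3c and Ptgs2 lie below 0 in both tissues.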

How the data were processed

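The spot intensity values are scanner output. Its software was Agilent Feature Extraction, version 10.5.1.1, a version that both the file headers and the submitters' processing notes give; the intensity values are as deposited. The authors' software subtracted background and normalized the dyes within each array, per the file headers. The deposited log10 ratio is red over green processed signal, per the file headers, and served as an alternative. A table of log2 values was also deposited; it equals the tissue channel less a constant per array, and served only to check the channels. Per the labels, 500 ng of total RNA per sample was labelled by linear amplification.

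Here, control spots and spots with an outlier flag in either channel were left out, spots of a probe were averaged, and log2 ratios of processed signals were turned to tissue minus reference. An outlier flag left 165 probes without a ratio on a thymus array, whatever their brightness, and these were not tested. limma 3.58.1 in R 4.3.3 was fitted over all 4 arrays with a mean per tissue (2 residual and 3.78 prior degrees of freedom), two-sided, with Benjamini-Hochberg adjustment over 26118 probes. The ratios hold the reference signal of each array, so its variation between arrays is part of the spread. Every array held the same reference, so variation between pools of lines is left out. Normexp (offset 50) used median spot signals, since the files hold no mean signals here. Named are all genes whose accession matched the RefSeq table of GRCm38.p6, and the leading pair of unnamed probes in each direction. The files name no build, so no positions are given. The members, genes and lists were chosen with earlier results of these data known. The script was tested on simulated data. The number of arrays limits the precision.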

Additional observations from a re-analysis of the deposited data

Results flagged for a closer look

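The ratio to the reference differed between thymus and brain, by the limma test of the difference itself, for Xlr4b (4.97 log2 units, thymus minus brain), Dnmt3a (1.81) and Sox9 (-3.43). The same test called 31.5% of all tested probes. The sizes for Xlr4b and Sox9 are uncertain. For Xlr4b brain, and for Sox9 thymus, was well above background on 1 array only. Outside the tested probes, 1632 probes stood well above background on both brain arrays in the brain channel, while neither channel did so on both thymus arrays.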

How the results depend on the processing

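The spread as a function of signal, the software's own log ratio, the fits with the tested probes fixed and the fit without saturated probes were chosen after seeing the data. Thymus minus reference calls numbered 3656 with no filter on dim probes (1630 higher, 2026 lower, with more probes tested) and 1539 against a log2 difference of 1 (698 and 841, a stricter test). For thymus minus brain, 2496 probes were higher and 3058 lower with no filter, and against a difference of 1 there were 2495 calls (1321 and 1174). Leaving out each array gave 0 to 9537 calls against the reference, 0 to 4743 higher and 0 to 4794 lower, and 0 to 9198 against brain, 0 to 5246 higher and 0 to 4176 lower, lowest without thymus 1. With the tested probes fixed, calls against the reference were 3111 without thymus 1 (1299 higher, 1812 lower) and 3706 without thymus 2 (1787 and 1919), and against brain 4662 (2483 and 2179) and 4985 (2831 and 2154). The other alternatives run kept the counts of calls within 1.5 times. With a replicate block, which here is also a dye term, 8829 probes were called against the reference, 7595 of them among the 7598. No label ties a replicate number to a shared animal or day, and across probes the replicate differences of thymus and brain correlated at 0.199. Detection in thymus alone was 55 by the software's test against background, 4714 when 1 array sufficed, 692 with the common floor and 2200 to 4736 with an array left out. In the reference alone it was 2, 64, 795 and 64 to 948. The SD between thymus arrays was 0.57 with no filter. Signs were followed only at the 10 tested genes with a symbol. At these, no difference from the reference turned its sign. Differences from brain that had not passed turned for Xlr with normexp and loess (-0.31), for Xlr3c with centred ratios (-0.014) and, in each case with an array left out, for Xlr (-0.057 to 1.31), Xlr3c (-0.0100 to 0.18), Rangap1 (-0.61 to 0.070, also with the tested probes fixed) and Ptgs2 (-0.45 to 0.30, also 0.30 with the tested probes fixed). The causes were not tested. The high floor of array 1 limits what can be said of dim probes.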
